A study of Rattus norvegicus with 15 samples.

Results

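RNA held by Argonaute 2 (Ago2) was compared between rat islet cells transfected with miR-17-5p and rat islet cells transfected with a control miRNA mimic. The comparison used the 7 libraries of Ago2-bound RNA, 3 from control and 4 from miR-17-5p cells, chosen by their titles out of the 15 libraries of the study. The other 8 libraries hold polyadenylated RNA of control and miR-17-5p cells and are used only for values set beside the Ago2-bound ones. All cells came from pancreatic islets of 10-day-old Sprague-Dawley rats and were dispersed before transfection, so that the transfected RNA is the only labelled difference between the groups. Ago2 and the RNA attached to it were pulled down with a monoclonal antibody, and the recovered RNA was fragmented and sequenced from one end without keeping the strand. The amount of mimic and the time between transfection and harvest are in none of the sources used here. Libraries are named by the number in their title, control 1, 2 and 3 and miR-17-5p 2, 4, 5 and 6, and values per library are given in that order. The labels do not name separate animals or cultures for the Ago2-bound libraries, and their descriptions all carry the same biological replicate number. Each p-value therefore reflects how much these libraries vary, and that variation may be technical.

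Argonaute proteins carry a microRNA as a guide, and the loaded complex, called RISC, binds messenger RNAs that pair with the seed of the guide, slowing their translation and hastening their decay. Sequencing the RNA that comes down with Ago2 lists the transcripts held at that moment, and the level of a transcript there depends on how much of it the cell makes as well as on how firmly it is held. The microRNA miR-17-5p is made from a polycistronic cluster that is active in dividing cells and tumours, and its known targets include brakes of the cell cycle and promoters of apoptosis. An islet preparation holds endocrine cells, chiefly the insulin-secreting beta cells, together with stellate cells and fibroblasts that lay down matrix, endothelial cells, macrophages and remnants of the exocrine pancreas.

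The mature rat sequences of miR-17-5p and of the other microRNAs that share its seed are shown because a mimic of one would offer the same seed to Ago2. They were taken from RefSeq (GRCr8, which is not the build of the count tables) and run 5′ to 3′, with the seed, bases 2 to 8, in capitals. The sequence of the mimic itself is not given in the sources used here.
rno-miR-17-5p: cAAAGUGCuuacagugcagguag
rno-miR-20a-5p: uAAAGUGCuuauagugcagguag
rno-miR-20b-5p: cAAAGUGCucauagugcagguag
rno-miR-93-5p: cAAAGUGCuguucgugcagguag
rno-miR-106b-5p: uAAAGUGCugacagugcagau
rno-miR-18a-5p: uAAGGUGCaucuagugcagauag
The first 5 names share the seed AAAGUGC, which pairs with the site GCACUUU in a transcript, and no other name among 724 mature rat entries does. The mature miR-17-5p sequence is encoded at chr15:98587861-98587883 on the plus strand and again in the Mir106a hairpin at chrX:137343615-137343637 on the minus strand. miR-20a-5p, at chr15:98588318-98588340 (plus strand), and miR-18a-5p, at chr15:98588000-98588022 (plus strand), lie in the same cluster as miR-17-5p, but miR-18a-5p has another seed, AAGGUGC. miR-20b-5p lies at chrX:137343239-137343261 (minus strand), miR-93-5p at chr12:22156894-22156916 (minus strand) and miR-106b-5p at chr12:22157103-22157123 (minus strand). The libraries do not measure these small RNAs. The count tables have 383 microRNA gene entries, of which 3 reached 10 counts in any Ago2-bound library.

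The Ago2-bound libraries held between 4185123 and 13420403 counts, and the control libraries stood apart from all others in how far they differed from each other. Pearson's r of log2(CPM + 1) across genes lay between 0.291 and 0.354 for the 3 pairs of control Ago2-bound libraries, where genes are not independent replicates. It lay between 0.735 and 0.881 for the 6 pairs of miR-17-5p Ago2-bound libraries, and at 0.895 or above for all pairs of mRNA libraries of 1 group. Of 7803 genes that reached 100 counts in a control Ago2-bound library, 3412 (43.7%) were at 0 in another control library. The same held for 807 of 8449 genes (9.55%) among miR-17-5p Ago2-bound libraries and for 5 of 7586 (0.0659%) among control mRNA libraries. Thinned to the depth of the smallest library, the control libraries detected 6773, 7098 and 5589 genes and the miR-17-5p libraries 10235, 8916, 10644 and 9710. The groups did not overlap, with means of 6487 ± 794 (SD, n = 3) and 9876 ± 746 (SD, n = 4); the exact two-sided permutation p over 35 splits was 0.0286, the smallest this design allows, and 0.114 after Benjamini-Hochberg adjustment over 4 library measures. Ins1 and Ins2, the rat insulin genes, took 1.79 ± 0.157% of control and 1.19 ± 0.240% of miR-17-5p Ago2-bound counts (SD, n = 3 and 4; exact permutation p = 0.0571, adjusted 0.114). The ribosomal RNA precursor Rn45s took 28.6 ± 8.04% and 31.2 ± 7.62% (SD, n = 3 and 4; exact permutation p = 0.571), and the 100 most counted genes 44.4 ± 7.50% and 48.9 ± 6.32% (exact permutation p = 0.514; both adjusted p = 0.571). Rn45s is itself among those 100 genes. With Rn45s removed, the 100 most counted genes took 21.35%, 24.62% and 21.35% of the remaining counts in control. With miR-17-5p they took 24.70%, 25.47%, 25.86% and 27.43%. These shares did not overlap between the groups and were not tested. How far a gene that drops out of single control libraries moves a result was not tested beyond the values given beside each result.

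**Figure D1:**
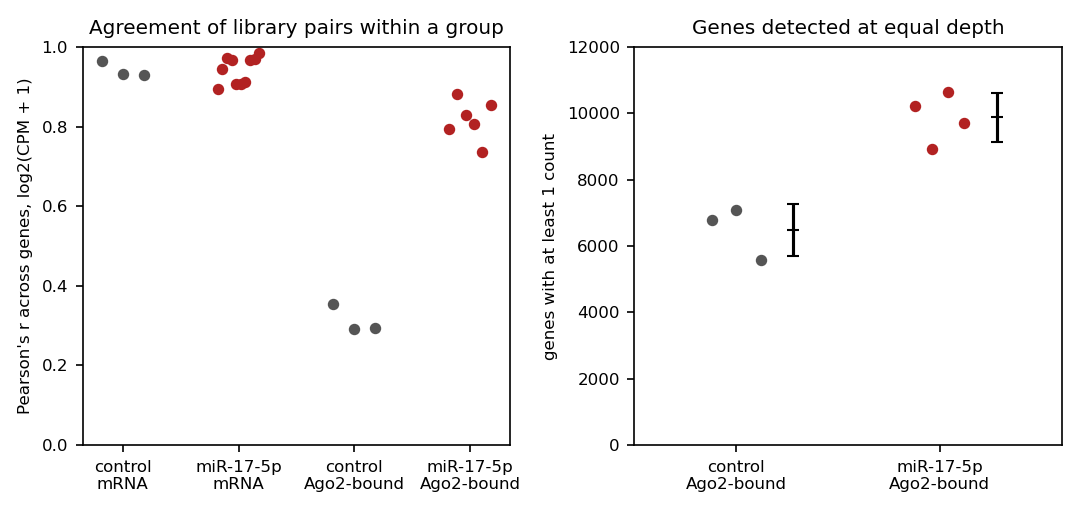
Left, Pearson's r across genes of log2(CPM + 1) for every pair of libraries within a group, 1 point per pair; right, genes with at least 1 count after thinning each Ago2-bound library to 4185123 counts, 1 point per library, with the mean and SD as bars. The 3 control Ago2-bound pairs sit between 0.291 and 0.354, below every other pair, and the 3 control libraries detect fewer genes than each of the 4 miR-17-5p libraries.

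Among 9443 genes tested, 35 passed (0.371% of those tested) at an adjusted p under 0.05, 32 higher in the miR-17-5p libraries (0.339%) and 3 lower there (0.0318%). Among the genes that rose were 5 collagens and the collagen chaperone Serpinh1, 5 matrix glycoproteins and 3 matrix proteases. Also among them were 4 proteins that tie the cytoskeleton to matrix, and smooth muscle actin. Of the 35 genes, 23 belong to a gene list described below. The lists were chosen with earlier results of these data known, so this count and the list medians below are a description and no separate support. The 3 genes that fell were Lgals3, Gyltl1b and Crispld1. The test was edgeR's quasi-likelihood F test with Benjamini-Hochberg adjustment over all genes tested, and every p given for a gene below is its adjusted p from that test unless another tool is named. Levels of single genes are CPM, the counts of a gene divided by those of its library and set to a common scale, adjusted by edgeR's TMM factors, and changes are log2 fold changes ± SE. No gene that passed overlapped between the groups, while among all genes tested 17.8% were non-overlapping and higher and 3.19% non-overlapping and lower. At an unadjusted p under 0.05 there were 1673 higher and 226 lower genes, and DESeq2 called 1147 higher and 155 lower, with all 35 among them. These counts and the shares of non-overlapping genes are the background for the list counts below.

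The count rested on single libraries. Without miR-17-5p library 2, 5 or 6 edgeR called 0 genes, with 1139, 1153 and 1268 genes at an unadjusted p under 0.05 and smallest adjusted p of 0.0802, 0.0502 and 0.0518; no other tool was run on these subsets. Without miR-17-5p library 4 it called 548, without control library 1 it called 26, without control library 2 it called 1225 and without control library 3 it called 122. Among those calls were 35, 11, 35 and 32 of the 35 genes. Each of the 35 kept its direction in all 7 of these fits, which was all but fixed in advance, since none overlapped between the groups. limma-voom with library weights called 19 genes, 16 of them among the 35. In these bulk libraries fewer cells of a type and less RNA per cell cannot be told apart.

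**Figure D2:**
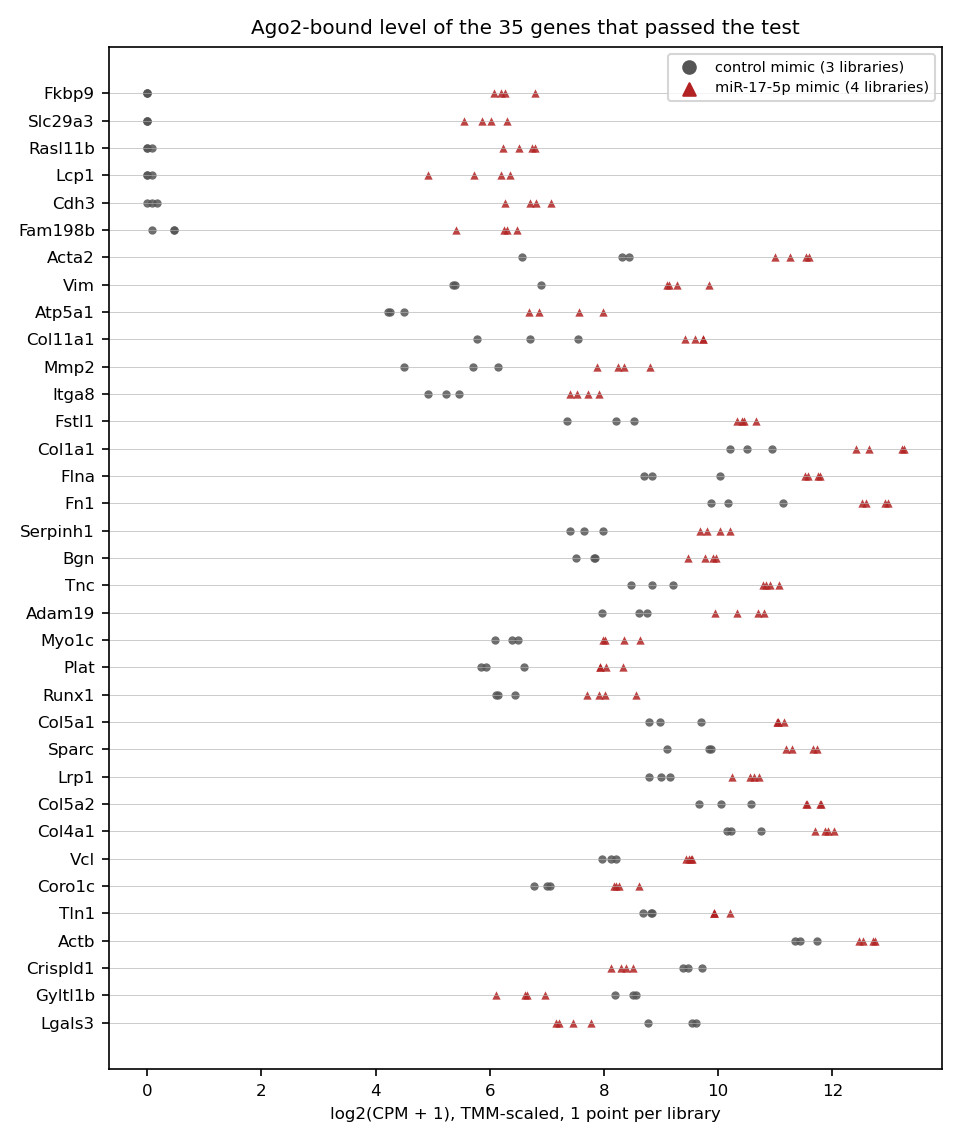
Ago2-bound level of each of the 35 genes that passed, as log2(CPM + 1) with TMM scaling, 1 point per library, ordered by log2 fold change; circles are the 3 control libraries and triangles the 4 miR-17-5p libraries. Circles and triangles do not overlap for any gene shown, and 6 genes sit at or near 0 in all control libraries.

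Chains of fibrillar and basement membrane collagens rose in the Ago2-bound RNA. Of 14 collagen genes tested 5 rose and none fell, and the median change of the list was 1.41 on the log2 scale against 0.27 for all genes tested. Col1a1, the main chain of type I collagen, stood at 1447, 1971 and 1184 CPM in the control libraries and at 9802, 9571, 6359 and 5446 CPM with miR-17-5p. Every miR-17-5p library was well above every control library, and the change was 2.35 ± 0.29 (adjusted p = 0.0191). Col5a1 and Col5a2, chains of the type V collagen that sets fibril width, also rose. Col5a1 stood at 440, 832 and 505 CPM in control and at 2123, 2129, 2090 and 2269 CPM with miR-17-5p (1.86 ± 0.25, adjusted p = 0.0257). Col5a2 went from 1055, 1518 and 810 CPM to 2978, 3000, 3592 and 3542 CPM (1.54 ± 0.24, adjusted p = 0.0355). In both, control library 2 was the highest control and still lay below all miR-17-5p libraries. Col11a1, a minor fibril chain best known from cartilage, stood at 53.7, 187 and 103 CPM in control and at 684, 849, 849 and 775 CPM with miR-17-5p (2.79 ± 0.40, adjusted p = 0.0257). Col4a1, a chain of the basement membrane network, went from 1195, 1733 and 1134 CPM to 3761, 4164, 3877 and 3315 CPM (1.48 ± 0.20, adjusted p = 0.0257). The remaining members include Col3a1, a fibrillar chain that did not pass at 1576, 4814 and 1666 CPM in control and 5889, 5716, 6475 and 8971 CPM with miR-17-5p (1.33 ± 0.41, adjusted p = 0.0960), where control library 2 came close to the miR-17-5p libraries. Col5a3 and Col27a1 were the 2 members below 0, at -0.61 and -0.80, and did not pass. At an unadjusted p under 0.05 the list had 8 members higher and 1 lower, and 8 members were non-overlapping and higher and 1, Col5a3, non-overlapping and lower. Col5a3, another type V chain, stood at 217.6, 341 and 225 CPM in control and at 144, 167, 157 and 217.2 CPM with miR-17-5p (adjusted p = 0.235), so that the groups were separated by less than 1 CPM. Col1a2, the partner chain of Col1a1, was listed at 0 counts in all 15 libraries and was not tested.

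Of 18 genes that fold, trim or crosslink collagen 1 rose, Serpinh1, and none fell, with 17 of 18 above 0 and a median log2 change of 1.41. Serpinh1, the collagen chaperone of the endoplasmic reticulum also called Hsp47, stood at 168, 200 and 252 CPM in control and at 895, 1047, 821 and 1181 CPM with miR-17-5p. The lowest miR-17-5p library was far above the highest control, and the change was 2.26 ± 0.23 (adjusted p = 0.0115). Loxl2, a lysyl oxidase that crosslinks collagen, was among the nearest genes below the threshold, at 179, 223 and 272 CPM in control and 517, 498, 710 and 684 CPM with miR-17-5p (1.42 ± 0.24, adjusted p = 0.0525). P4ha3, a prolyl hydroxylase subunit, was at 0 in all 3 control libraries and at 11.2, 24.3, 17.2 and 22.0 CPM with miR-17-5p, and did not pass (adjusted p = 0.0725). It passed the filter through the miR-17-5p libraries alone. DESeq2 called 5 members of this list higher and none lower, and 1147 higher and 155 lower over all 9443 genes.

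Secreted matrix glycoproteins and proteoglycans gave 5 genes that rose among 30 tested, with none lower and 24 of 30 above 0 (median 1.77). Bgn, the small proteoglycan biglycan, stood at 229, 226 and 182 CPM in control and at 999, 961, 707 and 867 CPM with miR-17-5p (2.06 ± 0.21, adjusted p = 0.0115). Fn1, fibronectin, on which cells assemble matrix, went from 1151, 2257 and 941 CPM to 5872, 6143, 7810 and 8047 CPM (2.26 ± 0.32, adjusted p = 0.0257). Tnc, tenascin C, a glycoprotein of injured and developing tissue, went from 459, 589 and 354 CPM to 1823, 1769, 1918 and 2138 CPM (2.03 ± 0.22, adjusted p = 0.0135). The miR-17-5p libraries differed little among themselves in Tnc, and for all 3 genes the gap between the groups was wider than the spread within either. Fstl1, a secreted follistatin-like glycoprotein, went from 163, 369 and 294 CPM to 1628, 1371, 1291 and 1409 CPM (2.37 ± 0.29, adjusted p = 0.0191). Sparc, osteonectin, which binds collagen, went from 913, 940 and 547 CPM to 3240, 3414, 2342 and 2504 CPM (1.85 ± 0.26, adjusted p = 0.0257). Thbs1, thrombospondin, missed the threshold at 2115, 2436 and 1100 CPM in control and 6819, 6537, 5297 and 5416 CPM with miR-17-5p (1.68 ± 0.28, adjusted p = 0.0506), also without overlap. Other classic matrix genes did not pass and overlapped between the groups: Lum at -0.08, Vcan at 0.04, Postn at 0.70 and Eln at -0.24.

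Enzymes that cut matrix rose in 3 of 17 cases and fell in none, with a median of 1.67 and 13 of 17 above 0. Mmp2, the gelatinase that cleaves basement membrane collagen, stood at 21.6, 69.8 and 51.4 CPM in control and at 327, 233, 304 and 448 CPM with miR-17-5p (2.79 ± 0.44, adjusted p = 0.0394). Adam19, a membrane-bound metalloprotease, went from 428, 392 and 250 CPM to 1661, 1791, 1285 and 983 CPM (2.00 ± 0.29, adjusted p = 0.0257). Plat, tissue plasminogen activator, went from 60.5, 95.8 and 56.6 CPM to 263, 244, 242 and 321 CPM (1.91 ± 0.29, adjusted p = 0.0314). In all 3 every control library lay below every miR-17-5p library. Mmp14, the membrane protease that activates Mmp2, did not pass at 107, 184 and 75.8 CPM in control and 396, 413, 348 and 400 CPM with miR-17-5p (1.67 ± 0.32, adjusted p = 0.0725). The inhibitor Timp2 stood at 0.0642, 0.257 and 27.8 CPM and at 104, 119, 81.6 and 41.5 CPM (adjusted p = 0.376), so that its control libraries differed widely among themselves.

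Genes that link the cytoskeleton to matrix gave 4 that rose among 26 tested and none lower, with 23 above 0, 19 non-overlapping and higher, and a median of 1.21. Itga8, the integrin chain of mesenchymal cells, stood at 29.2, 36.6 and 43.3 CPM in control and at 240, 182, 169 and 209 CPM with miR-17-5p (2.46 ± 0.31, adjusted p = 0.0191). Vcl, vinculin, which couples integrins to actin, went from 249, 278 and 296 CPM to 718, 738, 748 and 695 CPM (1.40 ± 0.18, adjusted p = 0.0191). Tln1, talin, which activates integrins, went from 459, 411 and 451 CPM to 977, 1180, 973 and 979 CPM (1.22 ± 0.18, adjusted p = 0.0257). Vinculin and talin had the tightest libraries of the group, with a small change and small errors. Flna, the actin crosslinker filamin A, went from 457, 1047 and 417 CPM to 2934, 3056, 3542 and 3457 CPM (2.34 ± 0.34, adjusted p = 0.0257), with control library 2 above the other controls. Actn1, an actinin, missed the threshold at 434, 653 and 658 CPM and 1429, 1390, 1234 and 1244 CPM (1.19 ± 0.21, adjusted p = 0.0572).

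Contractile genes of smooth muscle gave 1 gene that rose among 18 tested and none that fell. Acta2, smooth muscle actin and the usual mark of activated stellate cells, stood at 318, 347 and 93.9 CPM in control and at 2968, 3086, 2034 and 2436 CPM with miR-17-5p (3.38 ± 0.45, adjusted p = 0.0257). Of the 18 genes 17 were above 0 and 13 non-overlapping and higher, with a median of 2.02. Tagln, transgelin, another smooth muscle gene, stood at 15.1, 169 and 86.7 CPM and at 635, 787, 539 and 535 CPM and did not pass (2.79 ± 0.67, adjusted p = 0.0725). Actb, Myo1c, Coro1c and Vim also rose; they are in no contractile list and were set beside it after their values were seen. Actb, cytoplasmic beta actin, went from 3417, 2778 and 2593 CPM to 6884, 6745, 5913 and 5642 CPM (1.10 ± 0.17, adjusted p = 0.0355), the smallest change among the genes that rose. Actin genes are close in sequence, so how the counting shared their reads is uncertain. Myo1c, an unconventional myosin, went from 67.4, 89.3 and 82.6 CPM to 325, 397, 251 and 259 CPM (1.95 ± 0.27, adjusted p = 0.0257), and Coro1c, a coronin that remodels actin, from 109, 127 and 131 CPM to 391, 296, 289 and 305 CPM (1.39 ± 0.23, adjusted p = 0.0430). Vim, the mesenchymal intermediate filament vimentin, went from 40.0, 119 and 41.0 CPM to 623, 565, 548 and 913 CPM (3.31 ± 0.46, adjusted p = 0.0257).

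Markers of stellate cells, fibroblasts and pericytes were counted beside these genes. Of 16 such markers tested 6 rose and none fell, with 15 above 0 and a median of 1.72; the 6 are Col1a1, Col5a1, Acta2, Sparc and Fn1, which the lists above also hold, and Vim. Summed over the 18 markers in the count tables, the level was 6907 to 10782 CPM without TMM scaling in the control libraries and 24700 to 32150 CPM in the miR-17-5p libraries. In the mRNA libraries the same sum ran from 9906 to 18781 CPM in control and from 17006 to 42588 CPM with miR-17-5p. The receptors that define these cells, taken alone, did not pass: Pdgfrb stood at 190, 99.8 and 148 CPM and at 310, 368, 345 and 382 CPM (1.27 ± 0.26, adjusted p = 0.0725), and Pdgfra at 173, 60.5 and 93.1 CPM and at 101, 125, 97.7 and 129 CPM (0.06 ± 0.39, adjusted p = 0.989). Pdgfrb did not overlap between the groups and Pdgfra did. Rgs5, a pericyte marker, had 22 counts in control library 3 and 0 in the other 6, and was not tested. The part of these markers in the matrix, adhesion and actin results was not tested.

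Another set of genes was all but absent from the control libraries. Fkbp9, Slc29a3, Rasl11b, Lcp1, Cdh3 and Fam198b, 6 of the 32 that rose, had 3 counts or fewer in each control library, and their fitted changes depend on the prior count and are no bound. Fkbp9, a prolyl isomerase of the endoplasmic reticulum, had 0 counts in all 3 control libraries and 975, 634, 641 and 660 counts with miR-17-5p. Against a floor of 3 counts per control library it was at least 173-fold higher (adjusted p = 0.0191). Slc29a3, a nucleoside transporter of lysosomes, had 0 counts in all 3 and 818, 547, 406 and 468 counts with miR-17-5p, at least 131-fold higher (adjusted p = 0.0321). All 6 genes passed the filter through the miR-17-5p libraries alone, so their presence among the genes tested already depended on a high level there. Fkbp9 and Slc29a3 were present in control mRNA, at 29.8 ± 10.3 and 17.1 ± 6.16 CPM (SD, n = 3). Rasl11b, a small GTPase of the Ras family, had 1, 0 and 0 counts against 1402, 1016, 808 and 442, and Cdh3, P-cadherin, had 1, 1 and 0 against 1425, 726, 918 and 805 (both adjusted p = 0.00799). The ratio of pooled CPM was 2444 for Rasl11b, with an exact 95% interval of 438 to 96561, and 1291 for Cdh3, with 357 to 10661. These intervals cover counting error only. Lcp1, plastin of leukocytes, had 1, 0 and 0 counts against 663, 771, 261 and 434 (ratio 1419, interval 254 to 56058; adjusted p = 0.0257). Fam198b, a Golgi kinase relative, had 1, 3 and 2 counts against 994, 715, 786 and 248 (ratio 305, interval 140 to 831; adjusted p = 0.0257).

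Absence from single control libraries was common among all genes tested, so these 6 stand in a large class. Of the 9443 genes, 985 (10.4%) were at 0 in all 3 control libraries, and 591 of those were above 0 in all 4 miR-17-5p libraries, while 2 passed. Among 4429 genes (46.9%) at 0 in no control library, 27 rose and 3 fell and the median change was -0.07. It was 0.26 for 2206 genes at 0 in 1 control library and 0.86 for 1823 genes at 0 in 2. The classes are defined by control counts that enter the change itself. Genes at 0 in all 3 control libraries passed the filter through the miR-17-5p libraries alone. The order of these medians and the 591 genes are therefore no separate result. In control mRNA the genes at 0 in all 3 control Ago2-bound libraries had a median of 7.06 CPM and those at 0 in none 43.2 CPM. The nearest genes below the threshold include Adarb1, Etv3 and Prkcd, which likewise had at most a trace in control. Etv3, an Ets repressor, was at 0 in all 3 and at 39.2, 101, 35.5 and 53.7 CPM with miR-17-5p (adjusted p = 0.0503).

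The remaining genes that rose do not form a group. Lrp1, an endocytic receptor that clears matrix proteases, stood at 508, 568 and 442 CPM in control and at 1588, 1211, 1672 and 1515 CPM with miR-17-5p (1.56 ± 0.20, adjusted p = 0.0191), the single call among 22 endocytic and lysosomal genes. Runx1, a transcription factor of blood and mesenchyme, went from 67.7, 85.7 and 69.8 CPM to 378, 257, 239 and 208 CPM (1.86 ± 0.29, adjusted p = 0.0359). Atp5a1, a subunit of mitochondrial ATP synthase, went from 18.0, 17.6 and 21.4 CPM to 116, 102, 188 and 252 CPM (3.11 ± 0.45, adjusted p = 0.0257). Its control libraries agreed within a few CPM, and its miR-17-5p libraries spread more widely.

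The 3 genes that fell were present in every library. Lgals3, galectin 3, a sugar-binding lectin of epithelia and macrophages, stood at 741, 437 and 780 CPM in control and at 148, 143, 174 and 218 CPM with miR-17-5p, and fell by 1.93 ± 0.27 on the log2 scale (adjusted p = 0.0257). Gyltl1b, a glycosyltransferase that builds matriglycan on dystroglycan, stood at 378, 361 and 292 CPM and at 99.3, 68.1, 124 and 97.4 CPM and fell by 1.82 ± 0.27 (adjusted p = 0.0257). Crispld1, a secreted protein with a CAP domain, stood at 843, 713 and 664 CPM and at 312, 277, 333 and 363 CPM and fell by 1.20 ± 0.19 (adjusted p = 0.0355). In each the highest miR-17-5p library lay below the lowest control library. None of the other 4 galectin genes tested passed, and Lgals1 was at 0.05. In mRNA, Lgals3 fell too (-1.20 ± 0.26, adjusted p = 0.0248), while Gyltl1b (-0.78 ± 0.21, adjusted p = 0.0557) and Crispld1 (-0.63 ± 0.17, adjusted p = 0.0539) did not pass.

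No gene of 2 lists of known miR-17 family targets passed. Sites for the seed printed above were not searched, since transcript sequences were not used here. Of 24 targets that act in the cell cycle, apoptosis or growth factor signalling, edgeR called 0, with 4 higher and none lower at an unadjusted p under 0.05, and DESeq2 called 2 higher. Over all 9443 genes 1673 were higher at that unadjusted level and DESeq2 called 1147 higher. Neither count of the list is above that share. The median change was 0.49 and 16 of 24 lay above 0, against 5574 of all 9443 genes and a median of 0.27. Of the 24 genes 9 were at 0 in a control library; the median was 0.17, with 13 above 0, without control library 3, and 0.16 over the 19 genes with counts in at least 6 of the 7 libraries. Cdkn1a, the cell cycle inhibitor p21 and a textbook target, stood at 59.4, 48.2 and 57.9 CPM in control and at 139, 121, 139 and 84.2 CPM with miR-17-5p. The groups did not overlap, the change was 1.13 ± 0.36 and the adjusted p was 0.107, and DESeq2 called it (adjusted p = 0.0171). Stat3, which transmits cytokine signals, stood at 290, 281 and 428 CPM and at 484, 477, 495 and 539 CPM (0.58 ± 0.22, adjusted p = 0.139). Tgfbr2, a TGF-beta receptor, stood at 54.6, 51.7 and 0 CPM and at 96.5, 134, 62.8 and 67.5 CPM (1.35 ± 1.29, adjusted p = 0.824), with no counts in control library 3. E2f1, an activator of S phase genes, was at 0 in all 3 control libraries and at 0, 7.22, 2.02 and 1.50 CPM (adjusted p = 0.137). Bcl2l11, the proapoptotic protein Bim, stood at 16.6, 0.128 and 0 CPM and at 15.4, 63.3, 14.2 and 0 CPM (adjusted p = 0.898). Both were at or near 0 in at least 2 control libraries and 1 miR-17-5p library. Ccnd1 and Ccnd2, D-type cyclins, were at -0.06 ± 0.28 and 0.00 ± 0.62.

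A further 35 family targets, with roles in vesicle traffic, autophagy, chromatin and signalling, gave 0 calls by edgeR, 6 higher and none lower at an unadjusted p under 0.05, and 3 higher by DESeq2. Here too neither count of higher genes is above the share over all genes. Their median was 0.14, or 0.05 to 0.20 with 1 library left out, and 24 of 35 were above 0. Lima1, an actin-bundling protein, stood at 171, 172 and 141 CPM in control and at 336, 366, 307 and 350 CPM with miR-17-5p (1.07 ± 0.21, adjusted p = 0.0725), and rose in mRNA (0.73, adjusted p = 0.0406). Pkd2, the polycystin channel, stood at 89.8, 45.2 and 40.8 CPM and at 154, 166, 140 and 90.3 CPM (1.23 ± 0.41, adjusted p = 0.129). Both were non-overlapping. Established targets such as Txnip (0.09 ± 0.35, adjusted p = 0.986) and Mcl1 (0.60 ± 0.51, adjusted p = 0.760) overlapped between the groups.

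The genes of the silencing machinery itself gave 0 calls among 20 tested, with 2 higher and 3 lower at an unadjusted p under 0.05 and 1 higher and 2 lower by DESeq2. The median was -0.02, or -0.22 to 0.14 with 1 library left out, and 9 of 20 were above 0. Over all 9443 genes 1673 were higher and 226 lower at that unadjusted level, and DESeq2 called 1147 higher and 155 lower. The transcript of Ago2 (listed as Eif2c2) stood at 220, 98.0 and 84.1 CPM in control and at 336, 272, 268 and 154 CPM with miR-17-5p (0.94 ± 0.41, adjusted p = 0.232), with overlap. Tnrc6b, a GW182 protein that links Argonaute to deadenylases, stood at 1030, 874 and 898 CPM and at 678, 665, 522 and 376 CPM (-0.74 ± 0.23, adjusted p = 0.111). Pum2, an RNA-binding repressor, stood at 256, 239 and 434 CPM and at 167, 168, 185 and 166 CPM (-0.85 ± 0.26, adjusted p = 0.0944). For both, every miR-17-5p library was below every control library.

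Genes of the TGF-beta and YAP/TAZ pathways, ordered from ligand to target, gave 0 calls among 21 tested, with 5 higher and none lower at an unadjusted p under 0.05 and 5 higher by DESeq2. The median was 1.27, and 18 of 21 lay above 0. Over all 9443 genes 1673 were higher at that unadjusted level and DESeq2 called 1147 higher. Among ligands, Tgfb2 stood at 69.0, 40.0 and 73.4 CPM in control and at 173, 91.9, 183 and 146 CPM with miR-17-5p (1.29 ± 0.38, adjusted p = 0.0900), while Tgfb1 was at -0.30 ± 1.54. The receptor Tgfbr1 was at 0.09 ± 0.44 and the coactivators Yap1 and Wwtr1 at 1.66 ± 1.34 and 0.24 ± 0.55. The smallest p values of the list belonged to target genes. Ctgf, a matricellular protein, stood at 324, 669 and 246 CPM and at 1487, 1271, 1151 and 1515 CPM (1.71 ± 0.34, adjusted p = 0.0725). Cyr61, its relative, stood at 279, 757 and 531 CPM and at 1435, 1302, 1029 and 1267 CPM (1.27 ± 0.32, adjusted p = 0.0725). Amotl2, an angiomotin, stood at 22.0, 84.8 and 28.6 CPM and at 293, 266, 233 and 199 CPM (2.46 ± 0.50, adjusted p = 0.0725). None of the 3 overlapped between groups.

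Transcripts of beta cells lay on the lower side without any gene passing. Of 15 beta cell transcription factors edgeR called 0, with 5 lower and none higher at an unadjusted p under 0.05 and 5 lower by DESeq2, and 11 of 15 were below 0 with a median of -0.42. Over all 9443 genes 226 were lower at that unadjusted level and DESeq2 called 155 lower. Without control library 2 edgeR called 3 of these factors lower, and without miR-17-5p library 4 it called 1 lower. Neurod1, which drives insulin transcription, stood at 2629, 2428 and 2405 CPM in control and at 1731, 1638, 1539 and 1549 CPM with miR-17-5p (-0.62 ± 0.15, adjusted p = 0.0725). St18, a zinc finger repressor, stood at 661, 693 and 792 CPM and at 285, 282, 394 and 249 CPM (-1.24 ± 0.21, adjusted p = 0.0525), nearest to the threshold of all genes on this side. Both were lower in every miR-17-5p library than in any control library. Pdx1 stood at 78.5, 29.9 and 0 CPM and at 44.5, 34.5, 55.3 and 61.2 CPM (0.43 ± 1.40, adjusted p = 0.984), and overlapped. Without TMM scaling, the sum of the transcription factor list ran from 4350 to 6200 CPM in control and from 2430 to 3326 CPM with miR-17-5p. In the mRNA libraries the same sum was lower too, at 1387 to 1589 CPM in control and 836 to 1254 CPM with miR-17-5p. The median log2 change of the list in mRNA was -0.49.

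Of 30 genes of glucose sensing and insulin secretion edgeR called 0, with 7 lower and none higher at an unadjusted p under 0.05 and 4 lower by DESeq2 (median -0.38, 21 of 30 below 0). Over all 9443 genes 226 were lower at that unadjusted level and DESeq2 called 155 lower. Without control library 2 edgeR called 2 members of this list higher and 0 lower, in a fit that called 1163 genes higher and 62 lower. In mRNA the median of this list was -0.48. Its mRNA sum without TMM scaling was 16263 to 17189 CPM in control and 9983 to 13907 CPM with miR-17-5p. Pclo, the active zone protein piccolo, stood at 2005, 895 and 1053 CPM in control and at 697, 507, 729 and 330 CPM with miR-17-5p (-1.22 ± 0.35, adjusted p = 0.0827). Slc30a8, the zinc transporter of insulin granules, stood at 337, 224 and 276 CPM and at 121, 140, 182 and 197 CPM (-0.80 ± 0.26, adjusted p = 0.125). Neither overlapped, whereas Slc2a2, the glucose transporter, did at 1647, 1170 and 749 CPM and 530, 512, 777 and 936 CPM (-0.79 ± 0.31, adjusted p = 0.182). The islet hormones gave 0 calls among 7, with 2 lower at an unadjusted p under 0.05 and 1 lower by DESeq2. Iapp, amylin, which beta cells release with insulin, stood at 464, 614 and 498 CPM and at 74.2, 130, 204 and 277 CPM (-1.61 ± 0.40, adjusted p = 0.0725). Ins2 stood at 7717, 10148 and 5675 CPM and at 4499, 5910, 7763 and 5789 CPM (-0.39 ± 0.25, adjusted p = 0.544), and Gcg, glucagon, at 3438, 7054 and 3854 CPM and at 2819, 3511, 3732 and 7233 CPM (-0.15 ± 0.37, adjusted p = 0.978). Amylin was separated between the groups, and Ins2 and glucagon, on this TMM scale, were not. The share of Ins1 and Ins2 together among all counts, given above, was separated, at 1.69% to 1.97% in control and 0.947% to 1.47% with miR-17-5p. Ins1 and Ins2 are near-identical copies, so how their reads were shared is uncertain.

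**Figure D3:**
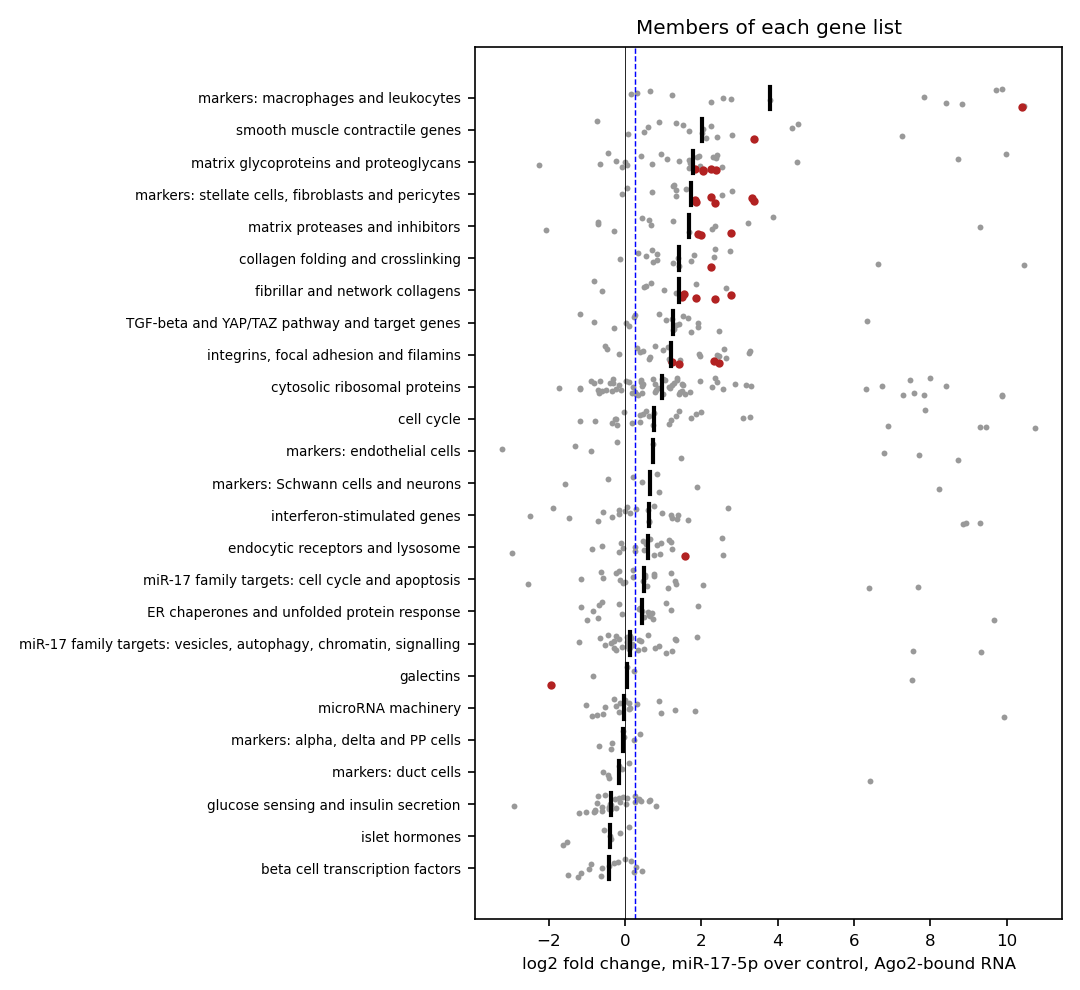
Log2 fold change in Ago2-bound RNA of every tested member of 25 gene lists, 1 point per gene, with red points for genes that passed, a black bar for the median of the list and a dashed line for the median of all genes tested (0.27); lists with fewer than 5 members tested are left out. Lists of matrix, adhesion and contractile genes have medians from 1.21 to 2.02, the beta cell lists lie at -0.38 and -0.42, and points beyond 5 are genes with few or no counts in control.

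Markers of other cell types that an islet preparation can hold were counted too. Macrophage and leukocyte markers gave 1 gene that rose among 15 tested, Lcp1, with 7 higher at an unadjusted p under 0.05 and 7 higher by DESeq2. All 15 were above 0, with a median of 3.80, or 3.72 when genes at 0 in all control libraries are set to their bound. These values describe markers that passed the filter, and 13 of the 15 were at 0 in a control library, 4 of them in all 3, so that the 4 passed through the miR-17-5p libraries alone. The filter asks for a minimum level in as many libraries as the smaller group has. None of the 13 could therefore pass it through the control libraries alone, and the direction of these markers is no separate result. With counts required in at least 6 of the 7 libraries 4 markers were left, with a median of 2.37 and no call. Summed over 18 markers without TMM scaling, their level was 119.6, 221 and 0.956 CPM in control libraries 1, 2 and 3 and 433 to 551 CPM with miR-17-5p. In control, Cd74, Lyz2, Cd14 and Coro1a were at 0 in all 3 libraries. Aif1 went the other way, with 115 counts in control library 2 and 0 in the other 6 libraries, and was not tested. The sum in mRNA ran from 104 to 406 CPM in control and from 212 to 584 CPM with miR-17-5p. Endothelial markers (9 tested, median 0.72, DESeq2 3 higher), duct markers (7 tested, median -0.17, DESeq2 1 higher), acinar markers (2 tested, median -2.46, DESeq2 0), markers of alpha, delta and PP cells (7 tested, median -0.05, DESeq2 0) and Schwann cell and neuronal markers (8 tested, median 0.64, DESeq2 1 higher) gave 0 calls by edgeR. At an unadjusted p under 0.05 these 5 lists had 4, 1, 0, 0 and 2 members higher, and 1 endothelial marker was lower. Over all 9443 genes 1673 were higher and 226 lower at that level, and DESeq2 called 1147 higher. The endothelial median changed sign, to -0.49 without miR-17-5p library 5 and -1.32 without library 6, and was -1.12 over the 4 markers with counts in at least 6 libraries. The Schwann cell and neuronal median was 0.02 without control library 3 and 7.10 without control library 1. The red blood cell markers had none that could be tested. The part of these markers in the results was not tested.

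**Figure D4:**
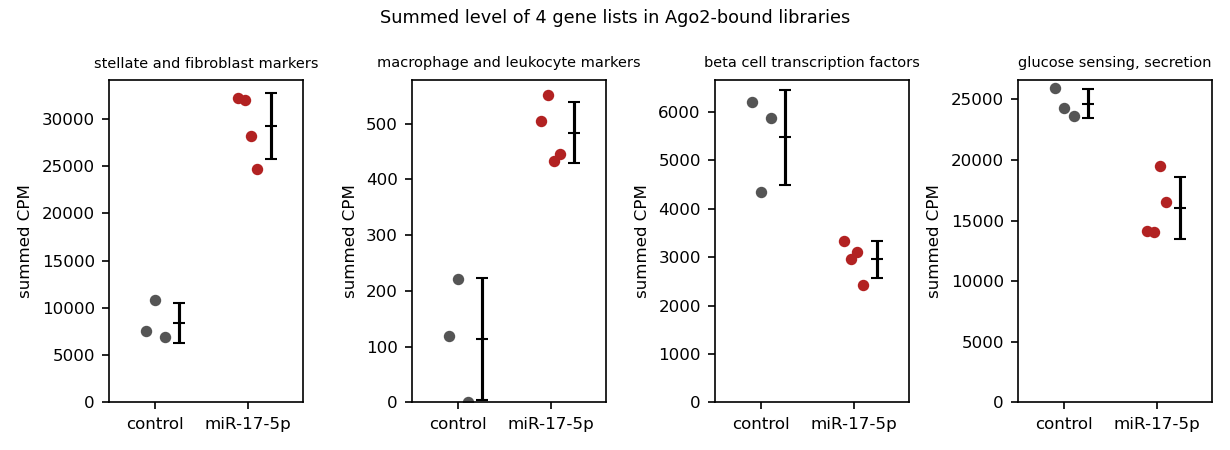
Summed CPM, without TMM scaling, of 4 gene lists in each Ago2-bound library, 1 point per library with the mean and SD as bars (n = 3 control and 4 miR-17-5p). Stellate and macrophage marker sums are higher in each miR-17-5p library than in any control library, and the sums of the beta cell lists are lower in each.

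The mRNA libraries show how far the changes in Ago2-bound RNA go along with the total level of a transcript. In mRNA 429 of 11077 genes passed (3.87%; 3.11% higher and 0.767% lower), and 27 of the 35 genes that passed in Ago2-bound RNA were among them, each in the same direction. These 27 are 77.1% of the genes that passed in Ago2-bound RNA and 6.29% of those in mRNA. The 8 that passed in Ago2-bound RNA alone were Tnc, Atp5a1, Lcp1, Plat, Slc29a3, Runx1, Gyltl1b and Crispld1. Of the 32 genes that rose, 31 were above 0 in mRNA, the exception being Atp5a1 at -0.11 ± 0.13, and 31 had the larger fold change in Ago2-bound RNA, the exception being Col11a1 at 2.83 ± 0.37 in mRNA. The last count is a description, since genes chosen for passing as higher in Ago2-bound RNA are favoured to be larger there, and the median difference over all genes tested was itself 0.40. The difference of both changes was tested for all genes with edgeR in a model of the 15 libraries, in which 13.4% of 11418 genes passed and 13.0% passed with the higher and 0.394% with the lower change in Ago2-bound RNA. Among the 35 genes it passed for 11, all of them with the larger rise in Ago2-bound RNA: Cdh3, Rasl11b, Fkbp9, Fam198b, Lcp1, Slc29a3, Serpinh1, Myo1c, Vim, Mmp2 and Atp5a1. The first 6 are those near 0 in control. Genes chosen on Ago2-bound values that enter this difference are favoured to pass, so the 11 are a description too. Vim rose by 1.01 ± 0.22 in mRNA, and its difference was 2.29 ± 0.49 (adjusted p = 0.00584). For Atp5a1 the difference was 3.21 ± 0.37 (adjusted p = 9.09e-05), for Mmp2 1.65 ± 0.50 (adjusted p = 0.0424), for Myo1c 1.22 ± 0.27 (adjusted p = 0.00761) and for Serpinh1 1.14 ± 0.31 (adjusted p = 0.0258). None of the collagen genes among the 35 passed this test, with Col1a1 at 1.11 ± 0.41 (adjusted p = 0.0907) the nearest. On data simulated for this test, with 1 spread per gene shared by all groups, it called 3 of 50 genes at a log2 difference of 2 and 2 of 50 at -2. A gene that did not pass is therefore not shown to change alike in both library types. The model gives each gene 1 spread over both library types, and limma-voom with library weights called 0 differences, with 1311 genes at an unadjusted p under 0.05.

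**Figure D5:**
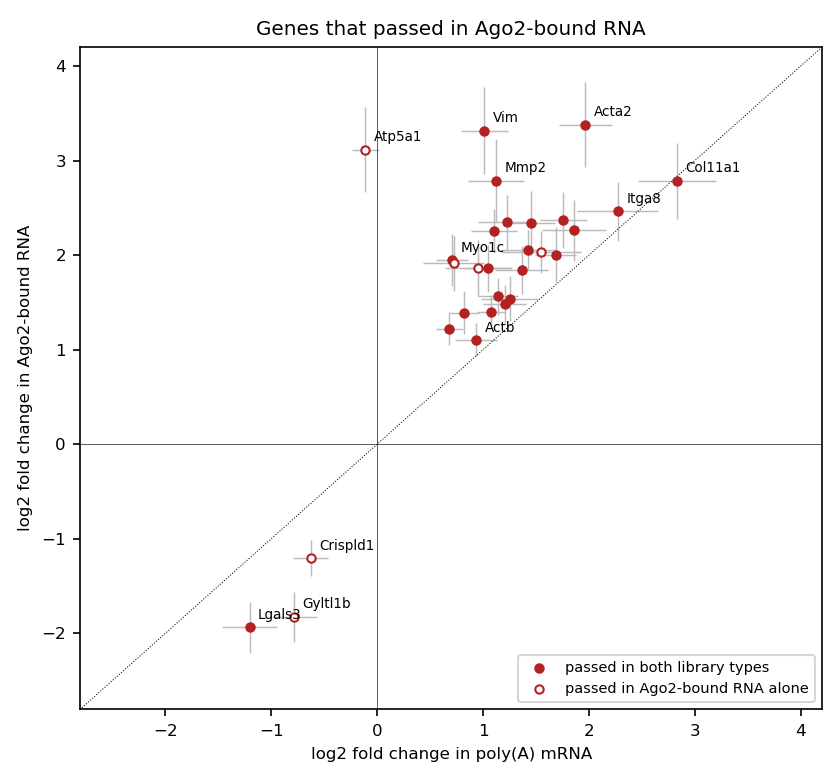
Log2 fold change in Ago2-bound RNA against that in mRNA, with SE as bars, for 29 of the 35 genes that passed in Ago2-bound RNA; the 6 genes near 0 in control are left out, filled points passed in both library types and open points in Ago2-bound RNA alone. All genes that rose except Col11a1 lie above the dotted line of equal change, and Atp5a1 lies at -0.11 in mRNA and 3.11 in Ago2-bound RNA.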

How the data were processed

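Deposited tables of raw counts per gene, 1 for each of 15 libraries, were used without their 5 summary entries. Per the submitters' processing notes the authors used TopHat2 2.0.10 with Bowtie2 and HTSeq on build rn5, and the notes also name DESeq and edgeR; the sources used here do not give the roles of the tools or their settings. Per the labels' protocols the Ago2-bound libraries were sequenced from one end and kept no strand, so reads of overlapping antisense genes cannot be told apart. The 17055 gene symbols of the files were used as given, and 16568 matched RefSeq GRCr8 names or synonyms, which served only for the microRNA sequences and symbol lookup.

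Counts were tested with edgeR 4.0.16 (R 4.3.3; TMM, filterByExpr, robust glmQLFit, glmQLFTest) on the 7 Ago2-bound libraries alone, two-sided, with Benjamini-Hochberg adjustment over 9443 genes and a threshold of 0.05. The mRNA comparison (3 against 5 libraries) and the difference of both changes (all 15 libraries, 1 mean per group) were fitted the same way. DESeq2 1.42.0 and limma-voom (limma 3.58.1), other scalings and filters, Rn45s removal, thinning and leaving out libraries were tried as alternatives. Each SE is the log2 fold change divided by the square root of the F statistic. A floor of 3 counts per library stood for genes at 0; it equals 0.224 to 0.717 CPM in the control Ago2-bound libraries, and floors and intervals cover counting error only. Library measures were compared by exact permutation over all 35 splits.

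Genes named were all that passed, up to 4 members with the smallest p from each of 28 gene lists, Cdkn1a, E2f1, Bcl2l11, Tgfbr2, Ins1, Ins2, Gcg, Sst, Ago2 and Rn45s, and the 10 nearest below the threshold; other members named were chosen after their values were seen. Some genes that this rule selects are not reported here. The comparison and the gene lists, written from general knowledge, were chosen with earlier results of these data known. On data simulated from the Ago2-bound libraries with 50 genes changed at each size, the test called 16 at a log2 change of 2, 22 at 4, 3 at -2 and 14 at -4, and 1 of 9243 unchanged genes. The simulation gave each gene 1 spread shared by both groups, although the real groups differed in spread. It changed only genes above a minimum mean count. Its counts therefore may not hold for the real libraries, and no rate of false calls is drawn from them. The biological coefficient of variation shared by all genes came to 1.23 in these libraries (1.89 within control and 0.701 within miR-17-5p) and 0.305 in mRNA.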

Additional observations from a re-analysis of the deposited data

Results flagged for a closer look

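In the 4 miR-17-5p Ago2-bound libraries 3 of the 40 values checked held a library apart from the rest, where chance gives about 1 in 20. The share of Rn45s stood at 26.6%, 28.2%, 27.3% and 42.6%, with library 6 apart (gap over range 0.8999, above Dixon's 95% critical value for 4 values). The share of the 100 most counted genes stood at 44.7%, 46.5%, 46.0% and 58.3%, again with library 6 apart (0.8708). Rn45s is among those 100 genes, so this value is not separate from its share. With Rn45s removed, the 100 most counted genes took 24.7%, 25.5%, 25.9% and 27.4% of the remaining counts. Tln1, talin, stood at 977, 1180, 973 and 979 CPM, with library 4 apart (0.9713).

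For 11 of the 35 genes that passed in Ago2-bound RNA the change there differed from the change in mRNA by edgeR's test of the difference, in each case toward a larger rise in Ago2-bound RNA. Of all 11418 genes 13.4% passed this test, 13.0% with the higher and 0.394% with the lower change in Ago2-bound RNA. The 35 were chosen on Ago2-bound values that enter the difference, so they are favoured to pass. The log2 difference was 11.66 for Slc29a3, 10.78 for Fkbp9, 9.182 for Rasl11b, 9.082 for Lcp1, 7.873 for Cdh3 and 5.905 for Fam198b. These 6 had 3 counts or fewer in each control Ago2-bound library, so the size depends on the prior count. It was 3.205 for Atp5a1, 2.293 for Vim, 1.651 for Mmp2, 1.224 for Myo1c and 1.137 for Serpinh1, all of which had counts in every library. limma-voom with library weights called 0 of these 11 differences.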

How the results depend on the processing

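All 35 genes kept their direction under every alternative that tested them. Since none of them overlapped between the groups, this was all but fixed in advance. The 35 calls (32 higher, 3 lower) became 34 with DESeq2 size factors and 37 with upper quartile factors. They became 1302 with DESeq2 (1147 higher, 155 lower), 19 with limma-voom and library weights (16 higher) and 25 with 1 weight per group (20 higher, 5 lower). With a mean of at least 500 counts 9 genes fell. Leaving out 1 library gave 0 to 1225 calls, with 0 to 1163 higher and 0 to 62 lower; the 0 came without miR-17-5p library 2, 5 or 6. The weights per group and the filters at 500 counts and at 6 of 7 libraries were chosen after seeing the data. In mRNA the 429 calls became 887 with DESeq2, 1017 with limma-voom and 85 to 816 with 1 library left out. The 1533 differences between library types became 0 with limma-voom and 1155 to 2452 with 1 replicate number left out. Leaving out 1 library moved the difference in detected genes between 2941 and 3710, where no split reaches a p under 0.05, and that in the Rn45s share between -1.18 (without miR-17-5p library 6) and 7.25 percentage points.

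Within the Ago2-bound comparison no paired analysis was possible because the groups share only replicate number 2. With a replicate block, mRNA calls fell to 0 (461 at an unadjusted p under 0.05) and differences to 30, of which 4 were among the 35 genes (Atp5a1, Cdh3, Fkbp9 and Rasl11b), with Vim at an adjusted p of 0.0814, Myo1c at 0.102, Serpinh1 at 0.241 and Mmp2 at 0.292; the deviations of same-numbered libraries correlated between -0.0106 and 0.0615, so the numbers were not taken to pair libraries.

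Genes named by the rule that did not pass and changed sign include Gcg (log2 change -0.15; -0.51 to 0.25 with 1 library left out), Sst (-0.55; 1.40 and 1.25 in the limma-voom fits with library and group weights), Mbp (-1.58; 1.67 and 1.11 likewise), Sstr3 (-0.35; 1.12 and 1.18 likewise, and -0.92 to 0.54 with 1 library left out), Irx2 (-0.69; 0.040 with limma-voom and library weights, and -1.15 to 0.19 with 1 library left out) and Lgals3bp (0.24; -0.17 to 0.76 with 1 library left out). The cause was not tested. In a simulation with 1 spread per gene shared by both groups, moderate changes were mostly missed, so a gene that did not pass is not shown to be unchanged.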

Other observations

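Other gene groups gave no edgeR call in the Ago2-bound RNA. Of 69 cytosolic ribosomal protein genes 13 were higher and 1 lower at an unadjusted p under 0.05, DESeq2 called 12 higher and 1 lower, and the median log2 change was 0.97. Over all genes 1673 of 9443 were higher at that level, a like share, and the median of the 16 ribosomal protein genes with a mean of at least 500 counts was 0.27. The members with the smallest p were nearly absent from control, such as Rpl22, a protein of the large subunit, at 0, 0.128 and 0 CPM in control and 37.9, 62.4, 36.4 and 63.2 CPM with miR-17-5p (edgeR adjusted p = 0.0629). Of these 69 genes 33 were at 0 in at least 1 control library and 3 in a miR-17-5p library; many have processed copies in the genome, so their counts are uncertain. Of 29 cell cycle genes 5 were higher at an unadjusted p under 0.05 and DESeq2 called 4 (median 0.75), with 21 of the 29 at 0 in a control library. Both counts are near the share over all 9443 genes, of which 1673 were higher at that level and DESeq2 called 1147 higher. Kif23, a kinesin of cytokinesis that passed the filter only through the miR-17-5p libraries, was at 0 in all 3 control libraries. It stood at 27.0, 28.8, 17.2 and 18.5 CPM with miR-17-5p (edgeR adjusted p = 0.0725).

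No stress gene passed. Of 21 endoplasmic reticulum chaperone and unfolded protein response genes, 1 was higher and 1 lower at an unadjusted p under 0.05 and by DESeq2 (median 0.44), and edgeR called 0. Atf4, the transcription factor of the integrated stress response, stood at 181, 182 and 171 CPM in control and at 100.3, 72.8, 81.5 and 100.5 CPM with miR-17-5p (-1.005 ± 0.27, edgeR adjusted p = 0.0725), with no overlap and a change of 0.04 in mRNA. Ddit3, a target of Atf4 that passed the filter only through the miR-17-5p libraries, was at 0 in all 3 control libraries and at 20.7, 3.87, 11.6 and 6.67 CPM with miR-17-5p (edgeR adjusted p = 0.0725). Of 26 interferon-stimulated genes 3 were higher at an unadjusted p under 0.05 and DESeq2 called 2 (median 0.62). Neither count is above the share over all 9443 genes, 1673 and 1147. The 4 noncoding RNAs tested had none at that level in either direction, none by DESeq2 and a median of -0.04; H19, an imprinted RNA, stood at 1718, 2055 and 851 CPM and at 1181, 1322, 754 and 1335 CPM, with overlap. Among the genes nearest below the threshold, Ccdc80, a secreted matrix protein, stood at 82.1, 191 and 46.3 CPM and at 782, 575, 705 and 721 CPM (2.71 ± 0.46, edgeR adjusted p = 0.0525). Cdh2, N-cadherin, stood at 23.0, 58.5 and 27.1 CPM and at 165, 186, 181 and 240 CPM (2.41 ± 0.41, edgeR adjusted p = 0.0563), with a change of 0.35 in mRNA that did not pass. Neither overlapped between the groups.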
